A study of Mus musculus with 14 samples.

Results

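The 5 genes described here code for steroid dehydrogenases of the mouse liver: Hsd3b1, Hsd3b2, Hsd3b3 and Hsd3b5 of the 3-beta-hydroxysteroid dehydrogenase family, and Hsd11b1, the type 1 11-beta-hydroxysteroid dehydrogenase. Every probe set to which the array annotation gives 1 of these symbols and no other was taken, which gave 6 of the 12488 probe sets on the array. Hsd3b1 has 2 of these probe sets and each other gene has 1. The 5 genes stand among 8252 genes that have a probe set of their own on the array. A further probe set that the annotation assigns to several genes of the family was not used.

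Liver RNA of 14 mice was measured on Affymetrix arrays, 1 mouse per array. The dwarf mice are Snell dwarfs, which carry a mutation of Pit-1, a pituitary transcription factor, and the controls are wild type mice. At 6 months each genotype had 4 mice, and at 22 months each had 3. The labels give each mouse its own number but no sex, strain or batch, and Pit-1 is known to act in the pituitary and not in the liver.

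Enzymes of the 3-beta-hydroxysteroid dehydrogenase family act on a hydroxyl or keto group of the steroid ring. Most of them oxidise the hydroxyl group and shift a double bond, a step in making progesterone, androgens and corticosteroids, whereas the mouse enzyme of Hsd3b5 works as a keto-steroid reductase and is known from the liver of adult male mice. Hsd11b1 regenerates the active glucocorticoid corticosterone from its inert keto form inside hepatocytes. Growth hormone is known to set the sex-biased expression of many liver genes, and without Pit-1 the pituitary lacks the cells that secrete it, as well as those of prolactin and thyrotropin.

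The Hsd3b genes lie next to each other on chromosome 3 in the RefSeq annotation (GRCm38.p6), in the order Hsd3b5, Hsd3b2, Hsd3b3, Hsd3b6 and Hsd3b1, and Hsd11b1 lies on chromosome 1. All 5 genes had an entry in the RefSeq promoter table, and Hsd3b3 had 2 start sites. Of all pairs of different genes, Hsd3b5 and Hsd3b3 shared the longest stretch in the 250 bases before the start. With the first Hsd3b3 start site 202 columns aligned, of which 151 were identical (74.8%), 48 mismatched and 3 gapped. With the second, 203 columns aligned and 153 were identical (75.4%), and the 2 Hsd3b3 windows themselves matched at 248 of 249 aligned columns. The other pairs of genes aligned over at most 38 columns. The alignment with the first Hsd3b3 start site is shown, since this pair of genes shares the longest stretch. Both sequences are read on the minus strand, and capitals mark bases that differ or have no partner.
Hsd3b5, chr3:98645583-98645784: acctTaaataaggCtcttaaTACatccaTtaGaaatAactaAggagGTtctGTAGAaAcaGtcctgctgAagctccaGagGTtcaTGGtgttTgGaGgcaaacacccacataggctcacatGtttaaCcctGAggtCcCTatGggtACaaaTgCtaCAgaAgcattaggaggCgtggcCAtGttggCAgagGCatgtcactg
Hsd3b3, chr3:98763129-98763327: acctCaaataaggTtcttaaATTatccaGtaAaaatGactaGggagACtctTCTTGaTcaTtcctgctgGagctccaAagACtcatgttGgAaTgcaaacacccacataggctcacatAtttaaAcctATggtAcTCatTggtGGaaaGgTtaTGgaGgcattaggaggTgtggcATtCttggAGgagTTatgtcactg
The Hsd3b5 stretch runs from 250 to 49 bases before its start and the Hsd3b3 stretch from 199 bases to 1 base before its own.

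Both strands of these windows were searched for 4 motifs. TTCNNNGAA, the core bound by STAT factors, stood in 7.02% of 32851 mouse promoter windows and, among the 5 genes, in Hsd3b1 (TTCTCAGAA, 122 bases before the start). The same half-sites, TTC and GAA, with 4 bases between them stood in 5.85% of windows and in Hsd3b5 (TTCTGTAGAA, 203 bases before the start, inside the printed stretch). The full palindrome of the glucocorticoid receptor, AGAACA and TGTTCT with 3 bases between them, stood in 0.009% of windows, and TTGCNNAA, a C/EBP core, in 9.56%. Neither was found in the windows of the 5 genes. A match describes letters and not a bound site.

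Values are MAS5 signals, which are relative to each probe set, so signals of different probe sets were not compared with each other. The summed signals of marker lists below add different probe sets, so the brightest ones weigh most in them. A floor of 54.9, the pooled 25th percentile, stood in for a detection call, and tests took in probe sets with a signal above 184.8, the pooled median, on 3 or more arrays. That left 4 of the 6 probe sets among 7227 tested. Array medians lay between 166.8 and 221.05. The 18S ribosomal control ran from 339.8 to 4853 at 22 months, from 74.5 to 588 in young wild type and from 60.8 to 217 in young dwarf mice, and the highest young wild type value belonged to animal 88. The beta-actin 3' to 5' ratio ran from 2.29 to 2.69 in young dwarf mice, from 1.16 to 2.38 in young wild type mice and from 1.25 to 1.74 at 22 months. The part of these control signals in the results was not tested beyond a fit with 18S as a covariate. In a piece of whole liver, fewer cells of a type and less RNA per cell cannot be told apart.

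Hsd3b5 was nearly lost from dwarf liver at both ages. At 6 months the wild type animals 82, 84, 86 and 88 had signals of 4603, 9521, 9938 and 4398, and the dwarf animals 83, 85, 87 and 89 had 133, 146, 104 and 33.5. At 22 months the wild type animals 1, 2 and 24 had 6099, 6779 and 8029, and the dwarf animals 3, 4 and 8 had 65.5, 108 and 146. The lowest wild type value stood far above the highest dwarf value at each age, and 1 dwarf array, that of animal 89, lay below the floor. The probe set passed the filter through its 7 wild type arrays alone.

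The mean Hsd3b5 signal was 7115 ± 3025 (SD, n = 4) in wild type and 104 ± 50.2 (n = 4) in dwarf mice of 6 months. At 22 months it was 6969 ± 979 (n = 3) against 106 ± 40.3 (n = 3). The dwarf level was lower by a log2 difference of -6.01 ± 0.34 (SE) at 6 months, or 64.4-fold (95% interval 39.2 to 106), with a limma adjusted p of 1.21e-08. At 22 months the difference was -6.10 ± 0.39, or 68.5-fold (38.6 to 122), with a limma adjusted p of 8.24e-08. The dwarf signals lie near the floor, so these sizes depend on how low values are treated: with a pseudocount of 50 in place of the floor the log2 difference was -5.51 at each age. With no filter on low values the differences were the same and the limma adjusted p was 1.57e-05 at 6 months and 6.56e-05 at 22 months. Young wild type mice fell into a higher pair, animals 84 and 86, and a lower pair, animals 82 and 88. The levels of the 2 wild type groups did not differ beyond their spread, nor did those of the 2 dwarf groups.

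**Figure D1:**
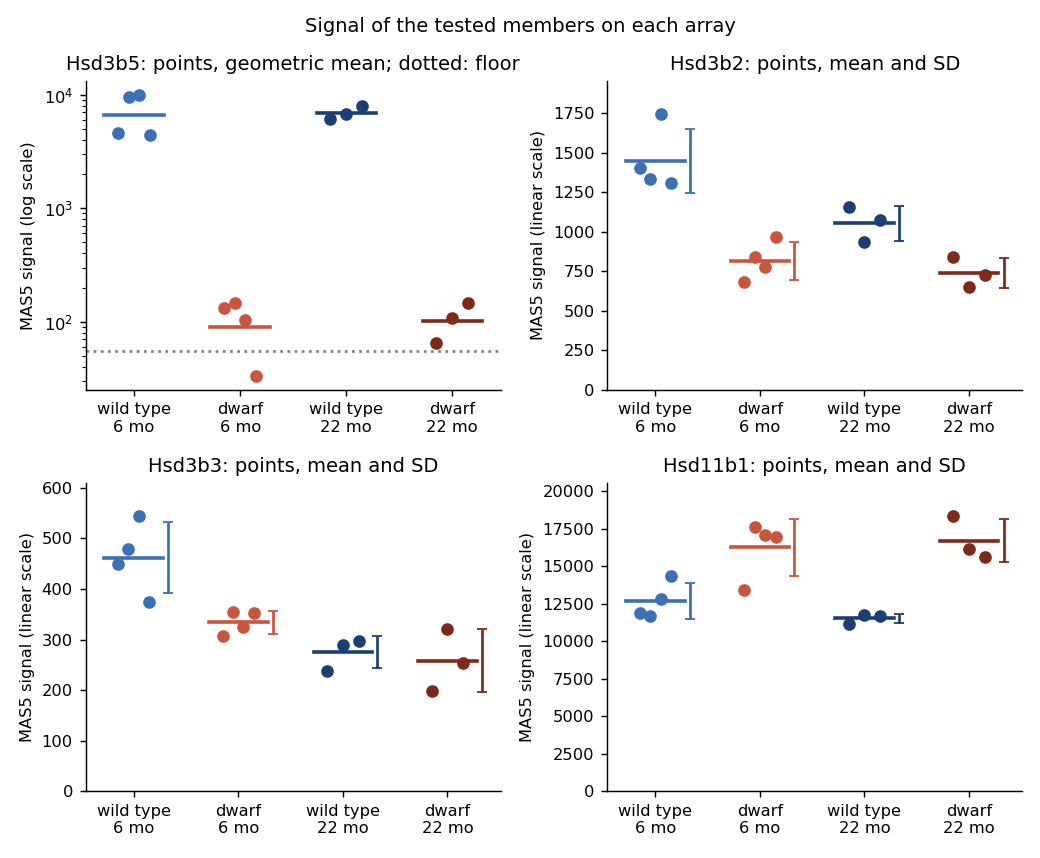
MAS5 signal of the 4 tested steroid dehydrogenases on each of the 14 arrays, by group. Points are mice. Hsd3b5 is drawn on a log scale with its geometric mean and the floor of 54.9 as a dotted line, and the others on linear scales from 0 with the mean and SD. Hsd3b5 falls from 4398 or more in wild type to at most 146 in dwarf mice, whereas Hsd11b1 lies higher in dwarf mice with an overlap at 6 months.

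Hsd3b2, a family member of the dehydrogenase and isomerase type, was lower in dwarf mice by a smaller margin. At 6 months its signals were 1404, 1337, 1745 and 1306 in wild type animals 82, 84, 86 and 88, against 681, 838, 778 and 966 in dwarf animals 83, 85, 87 and 89. At 22 months they were 1155, 936 and 1072 in wild type animals 1, 2 and 24, against 840.4, 648 and 727 in dwarf animals 3, 4 and 8. The genotypes did not overlap at either age. The means were 1448 ± 202 and 816 ± 119 (SD, n = 4 each) at 6 months, and 1054 ± 110 and 739 ± 96.6 (n = 3 each) at 22 months.

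The 6-month difference of Hsd3b2 was -0.83 ± 0.15 on the log2 scale, 1.78-fold (1.43 to 2.21), and passed with a limma adjusted p of 0.00151. At 22 months the difference was -0.52 ± 0.17, 1.43-fold, and did not pass (limma adjusted p = 0.147, 95% interval -0.88 to -0.15 before adjustment). From high to low its group means ran young wild type, old wild type, young dwarf and old dwarf, and the old wild type and both dwarf groups lay close: the highest young dwarf value, 966, exceeded the lowest old wild type value, 936.

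Hsd3b3, which is known from liver and kidney, showed a difference in young mice that did not pass the test. Its signals at 6 months were 450.2, 479, 545 and 375 in wild type animals 82, 84, 86 and 88, and 306, 355, 324 and 352 in dwarf animals 83, 85, 87 and 89. At 22 months they were 239, 289 and 298 in wild type animals 1, 2 and 24, and 198, 322 and 255 in dwarf animals 3, 4 and 8. The young groups did not overlap and the old groups did. The log2 difference was -0.46 ± 0.18 at 6 months (limma adjusted p = 0.113, interval -0.85 to -0.07) and -0.11 ± 0.21 at 22 months (adjusted p = 0.945, interval -0.56 to 0.34). With quantile or median scaling of the arrays the 6-month difference was -0.57 or -0.65 and passed (adjusted p = 0.0377 and 0.0221). From high to low the means ran 462 ± 70.4 in young wild type, 334 ± 23.2 in young dwarf (SD, n = 4 each), 275 ± 31.9 in old wild type and 258 ± 62.0 in old dwarf mice (n = 3 each), and the last pair did not differ beyond its spread.

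Hsd3b1, the form known from adrenal gland and gonads, was at or near the floor. Its first probe set had 114, 99.1, 71.9 and 120 in young wild type mice, 102, 125, 141 and 34.7 in young dwarf mice, 54.7, 67.7 and 114 in old wild type mice and 23.4, 93.6 and 35.4 in old dwarf mice. It lay at or below the floor on 4 of 14 arrays, and all 4 groups overlapped. The second, whose _f_at suffix marks a probe set that may detect related transcripts, lay at or below the floor on 13 of 14 arrays and reached 61.9 on the remaining one, wild type animal 84. Neither exceeded the pooled median on any array, so neither was tested and no fold is given. Among genes of adrenal and gonadal steroid production, Cyp11a1, the enzyme of the first step, had signals from 17.2 to 176. It lay at or below the floor on 7 arrays, and Mc2r, the corticotropin receptor, lay there on 11. Inha lay there on 8, Nr0b1 on 5 and Star on 1. Cyp17a1, Cyp21a1, Fdx1, Nr5a1, Scarb1, Stard3 and Tspo lay above the floor on all 14 arrays. Nr5a1 ran from 1675.5 to 3664 and Cyp21a1 from 940.8 to 1655. Of that list 12 of 17 genes were on the array and 8 were tested, and 0 of the 8 passed at either age (limma adjusted p under 0.05), with an unadjusted p under 0.05 for 0 at 6 months and 1 at 22 months. Its summed signal ran from 18946 to 21082 in young wild type, 20143 to 23850.2 in young dwarf, 18138 to 21092 in old wild type and 16133 to 17172 in old dwarf mice. The brightest genes of the list, Fdx1, Tspo, Scarb1 and Nr5a1, weighed most in that sum.

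Hsd11b1 went the other way. At 6 months its signals were 11897, 11709, 12798 and 14342 in wild type animals 82, 84, 86 and 88, and 13435, 17608, 17097 and 16918 in dwarf animals 83, 85, 87 and 89. At 22 months they were 11150.4, 11726 and 11692 in wild type animals 1, 2 and 24, and 18358, 16133 and 15639 in dwarf animals 3, 4 and 8. The old groups did not overlap. In the young groups the highest wild type mouse, animal 88, exceeded the lowest dwarf mouse, animal 83. The means were 12687 ± 1201 and 16264 ± 1909 (SD, n = 4 each) at 6 months, and 11523 ± 323 and 16710 ± 1448 (n = 3 each) at 22 months.

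The Hsd11b1 difference was 0.53 ± 0.13 on the log2 scale at 22 months, 1.45-fold (1.19 to 1.76), and passed with a limma adjusted p of 0.0411. This call was weak: over all alternatives its adjusted p ran from 0.0199 to 0.198. It was lost in 5 of 8 settings and when any 1 of 10 of the 14 arrays was left out. At 6 months the difference was 0.36 ± 0.12, 1.28-fold, with a limma adjusted p of 0.0547, and did not pass. It passed without wild type animal 88 (0.42, adjusted p = 0.0340) or without dwarf animal 83 (0.44, adjusted p = 0.0150), and was 0.16 (adjusted p = 0.456) when the arrays were scaled to a common median. Averaged over both ages, a contrast chosen after the values at each age were seen, it was 0.44 ± 0.09, 1.36-fold (1.19 to 1.55), and passed with a limma adjusted p of 0.00352 (0.000950 to 0.0332 over its alternatives).

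Hepatocyte markers moved beside the 6-month difference. The summed signal of the 15 of 17 hepatocyte markers on the array ran from 214829 to 251304 in young wild type and from 267996 to 369970 in young dwarf mice, without overlap, and 6 of the 15 were higher and 1 lower in young dwarf mice. The 6 became 2 with quantile scaling and 0 with median scaling. None of the 15 was at the floor on all arrays. At 22 months the sums overlapped, at 213907 to 275139 in wild type and 222877 to 255178 in dwarf mice, and 0 of the 15 passed by limma, with 2 at an unadjusted p under 0.05. The part of the marker signal in the 6-month difference was not tested.

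Of the markers of other liver cells, some were called too. In young dwarf mice 3 of 7 tested liver endothelial markers, 3 of 5 B cell and 1 of 7 stellate cell markers were higher, and 1 of 3 T cell markers (Zap70) and 1 of 2 red blood cell markers were lower. With quantile scaling the B cell count became 1 and the stellate cell count 2, and with median scaling the B cell count became 0 and the endothelial count 2. Without animal 88 the B cell count was 2. The summed signal of 11 endothelial markers ran from 4129 to 4833 in young wild type and from 4810 to 6255 in young dwarf mice, and that of 11 stellate cell markers from 9265 to 10543 and from 11086 to 14513. At 22 months 1 of 9 Kupffer cell markers (Clec4f) and 1 of 3 T cell markers (Zap70) were lower. The summed signal of 11 Kupffer cell markers then ran from 6830.1 to 10741 in wild type and from 4629 to 5932 in dwarf mice. That of 12 T cell markers ran from 2065 to 2265 and from 746 to 1032. Of the 3 tested T cell markers, Zap70 had means of 1203 in old wild type and 78.9 in old dwarf mice. The difference in the summed signal of T cell markers rested largely on Zap70, whose probe set may detect other transcripts. The means of Cd4 were 344 and 359, and those of Gzmb 124 and 66.8. The bile duct markers Krt7, Krt19 and Epcam lay at or below the floor on all 14 arrays. The part of these cells in the results was not tested.

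Of the 4 tested members, 2 were called at 6 months (Hsd3b5 and Hsd3b2, both lower), where 13.3% of all tested probe sets were called, 6.37% higher and 6.95% lower in dwarf mice. At 22 months 2 were called (Hsd3b5 lower and Hsd11b1 higher), against 2.93% of all tested probe sets, 1.37% higher and 1.56% lower. Hsd3b5 is in these counts only because its wild type arrays passed the filter. Averaged over both ages 3 were called (Hsd3b5 and Hsd3b2 lower, Hsd11b1 higher), against 10.3% of all tested probe sets, 4.65% higher and 5.62% lower. Groups did not overlap for 3 members at 6 months, all lower in dwarf mice, and for 3 at 22 months, Hsd3b5 and Hsd3b2 lower and Hsd11b1 higher. Over all tested probe sets, 9.31% lay higher and 7.80% lower without overlap at 6 months, and 11.5% lower and 10.3% higher at 22 months. The median log2 difference over all tested probe sets was 0.10 at 6 months and 0.01 at 22 months.

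**Figure D2:**
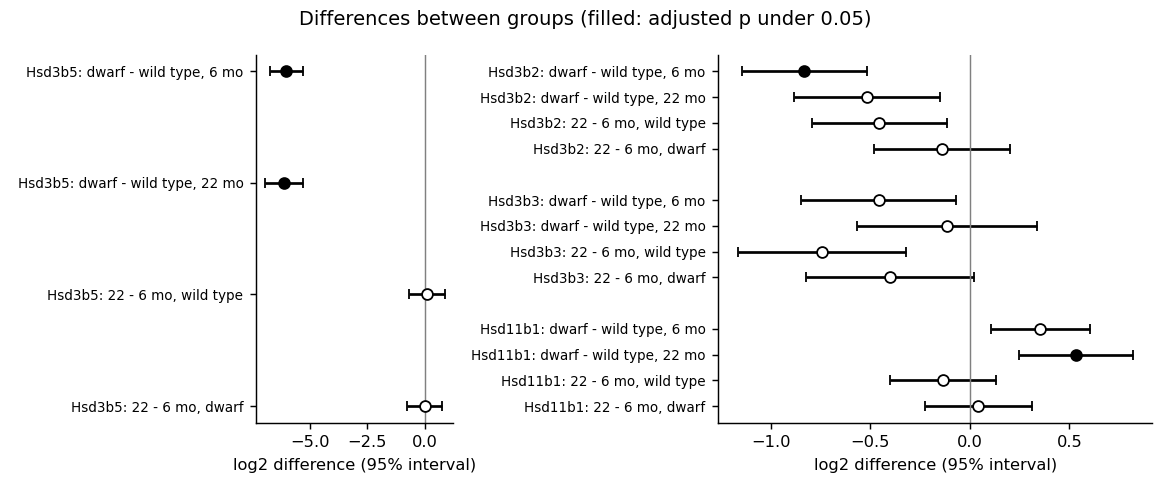
Log2 differences with 95% intervals for each tested member in the genotype and age comparisons, where filled points passed at a limma adjusted p under 0.05. The Hsd3b5 genotype differences lie at -6.01 and -6.10, whereas the age intervals of Hsd3b5 span 0.

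**Figure D3:**
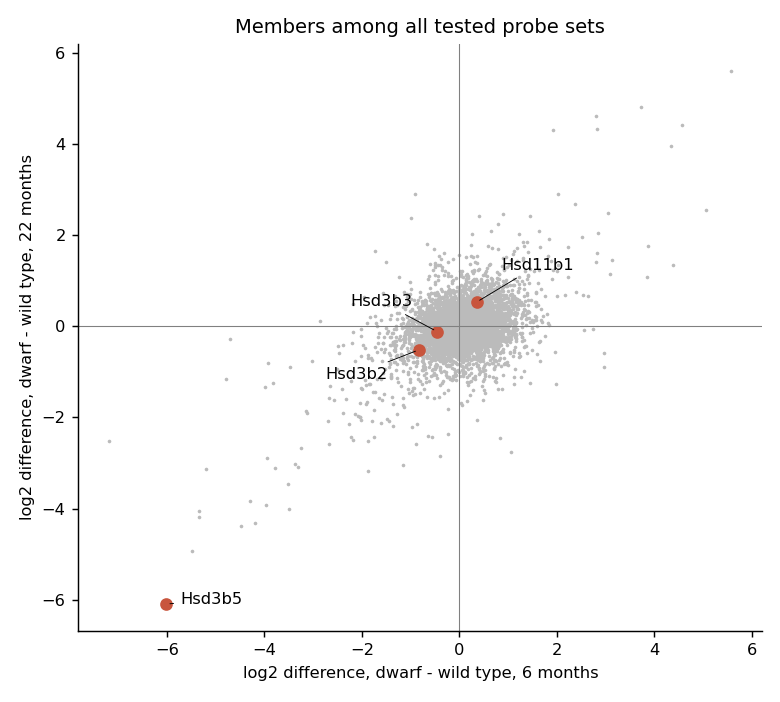
Log2 difference of dwarf against wild type at 6 months (x) and 22 months (y) for all 7227 tested probe sets, with the 4 tested members marked. Hsd3b5 lies at the far lower left at -6.01 and -6.10, and Hsd11b1 is the only member above 0 on both axes.

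With age, 0 of the 4 tested members passed in either genotype by limma. Of all tested probe sets, 2.49% were called with age in wild type and 16.5% in dwarf mice. At an unadjusted p under 0.05 there were 2 in wild type mice, Hsd3b3 and Hsd3b2, and 0 in dwarf mice. Hsd3b3 had the largest age difference, -0.74 ± 0.20 on the log2 scale (1.67-fold lower at 22 months) in wild type mice, without overlap of the ages, and a limma adjusted p of 0.0601. Without animal 88, whose 18S signal was the highest of the young wild type arrays, the difference was -0.84 and passed (adjusted p = 0.0279). Hsd3b2 also stood lower without overlap in old wild type mice, at -0.45 ± 0.16 (adjusted p = 0.151), where 7.73% of all tested probe sets lay lower and 8.12% higher without overlap. Hsd3b5 changed by 0.07 (interval -0.71 to 0.84) and Hsd11b1 by -0.13 (interval -0.40 to 0.13) in wild type mice. In dwarf mice the age differences were -0.40 for Hsd3b3 (interval -0.82 to 0.02), -0.14 for Hsd3b2 (-0.48 to 0.20), -0.02 for Hsd3b5 (-0.80 to 0.75) and 0.04 for Hsd11b1 (-0.22 to 0.31).

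The interaction tested whether the genotype difference itself differed between ages. By limma 0 of the 4 passed, against 2.19% of all tested probe sets, and 0 of the 4 had an unadjusted p under 0.05. It was 0.31 for Hsd3b2 (interval -0.17 to 0.80, adjusted p = 0.574), 0.34 for Hsd3b3 (-0.25 to 0.94, adjusted p = 0.627), 0.18 for Hsd11b1 (-0.20 to 0.56, adjusted p = 0.702) and -0.09 for Hsd3b5 (-1.18 to 1.01, adjusted p = 0.962), by limma. The calls at 1 age alone therefore do not show that Hsd3b2 or Hsd11b1 differed by age.

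Related genes were Hsd3b6, Hsd3b7 and Hsd11b2. Hsd3b6, which lies in the same cluster on chromosome 3, was lower in young dwarf mice: 737 ± 62.4 in wild type and 477 ± 122 in dwarf mice (SD, n = 4 each), a log2 difference of -0.66 ± 0.18 (limma adjusted p = 0.0217). At 22 months its difference was 0.00 (interval -0.43 to 0.43). Hsd3b7, an enzyme of bile acid synthesis from oxysterols, was 6722 ± 186 in young wild type and 3528 ± 1497 in young dwarf mice, a difference of -1.03 ± 0.25 (limma adjusted p = 0.0124), and -0.01 at 22 months (interval -0.62 to 0.61). The interactions of Hsd3b6 and Hsd3b7 did not pass, with adjusted p of 0.275 and 0.219. Hsd11b2, which inactivates corticosterone and is known from the kidney, reached at most 81.5 and was not tested. H6pd, which supplies NADPH to the Hsd11b1 enzyme, differed by 0.00 (interval -0.28 to 0.28) at 6 months and -0.27 (-0.59 to 0.05) at 22 months. The Hsd3b genes are closely similar in sequence and the probe set of Hsd3b6 carries the suffix of possible cross-detection, so their signals may share transcripts; the probe sequences were not used here.

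Among 15 tested genes of other hydroxysteroid and retinol dehydrogenases, 1 rose and 5 fell in young dwarf mice, with a median log2 difference of -0.24, which was -0.34 with quantile and -0.44 with median scaling. Those that fell besides Hsd3b6 and Hsd3b7 were Hsd17b12 (-1.56 ± 0.15), an enzyme of fatty acid elongation, Hsd17b4 (-1.16 ± 0.15), the peroxisomal multifunctional enzyme, and Hsd17b2 (-1.37 ± 0.19), which inactivates oestradiol and testosterone. Hsd17b11, a lipid droplet dehydrogenase, rose by 0.85 ± 0.17. At 22 months 1 rose, Rdh16 (1.35 ± 0.31), a retinol dehydrogenase, and 1 fell, Hsd17b2 (-1.55 ± 0.22), with a median of 0.05. Without animal 88 of the 6-month wild type group, 3 rose at 22 months, with Hsd17b10 (0.65, adjusted p = 0.0446) and Hsd17b11 (0.63, adjusted p = 0.0324) added. The interaction passed for 4 of the 15: Hsd17b4 (1.59, adjusted p = 0.00304), Hsd17b12 (1.19, 0.0164), Rdh16 (1.86, 0.0289) and Hsd17b10 (1.07, 0.0339), by limma.

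Of 12 tested genes of steroid reduction, hydroxylation and conjugation in liver, 4 rose and 2 fell at 6 months and again 4 and 2 at 22 months. The 4 that rose at 6 months became 3 with median scaling or without animal 88, as Cyp1a2 no longer passed. Those that rose at 22 months became 3 with either scaling or without animal 88, as Cyp3a16 no longer passed. Sult2a2, a hydroxysteroid sulfotransferase, rose by 3.74 ± 0.41 and 4.81 ± 0.47 on the log2 scale. Its wild type means, 59.25 at 6 months and 89.3 at 22 months, lay near the floor, so these sizes depend on how low values are treated. Cyp7b1, the oxysterol and steroid hydroxylase, fell by 1.36 and 1.71. Ugt2b5, a glucuronosyltransferase, fell by 0.96 and 0.54, the latter call being lost with median scaling. At 6 months Sult1a1, a phenol sulfotransferase, rose by 0.95. Cyp3a25 and Cyp3a11, cytochromes that hydroxylate steroids, rose by 1.05 and 0.77 at 22 months. Cyp3a11 also rose at 6 months, by 0.63 (limma adjusted p = 0.00299), whereas Cyp3a25 differed by -0.07 at that age and did not pass. The list's median was 0.10 at 6 months, which turned to -0.09 with median scaling, and 0.03 at 22 months.

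Of 9 tested steroid receptors and carriers, 2 rose and 2 fell at 6 months and 0 passed at 22 months by limma, with 0 at an unadjusted p under 0.05. Serpina6, which codes for the plasma carrier of corticosterone, rose by 1.57 ± 0.20 in young dwarf mice (limma adjusted p = 9.34e-05). At 22 months its difference was 0.20 (interval -0.30 to 0.70), and the interaction passed (-1.37, limma adjusted p = 0.0334). Pgrmc1, a membrane progesterone-binding protein, fell by 0.44. Fkbp4, a cochaperone of steroid receptors, fell by 0.53, a call lost with quantile scaling or without animal 88, and Alb rose by 0.44, a call lost with either scaling. Medians were 0.00 and 0.04.

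Of 21 tested genes known to be induced by glucocorticoids in liver, 7 rose and 2 fell at 6 months, with a median of 0.54, and 1 rose at 22 months, with a median of 0.22. The 7 that rose at 6 months became 6 with median scaling or without animal 88, as Nfkbia no longer passed (limma adjusted p = 0.109 and 0.0646). The 6-month median was 0.34 with median scaling. The 2 that fell became 1 with quantile scaling or without animal 88, as Klf9, a glucocorticoid-responsive transcription factor, no longer passed. The 1 that rose at 22 months became 2 with quantile scaling, with Mt2 added, and 0 with median scaling. Igfbp1, an IGF-binding protein also raised by fasting, rose by 5.07 ± 0.68 at 6 months and had 2.56 ± 0.79 at 22 months (adjusted p = 0.111). Agt, angiotensinogen, rose by 1.62 ± 0.19 and 0.95 ± 0.22, the latter with a limma adjusted p of 0.0244 that became 0.0514 with median scaling. Gadd45a, a stress-response gene, fell by 2.14 at 6 months. Fkbp5 and Tat, common readouts of the glucocorticoid receptor, did not pass at either age (0.00 and 0.34 at 6 months, 0.50 and -0.10 at 22 months), and were named after their values were seen.

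**Figure D4:**
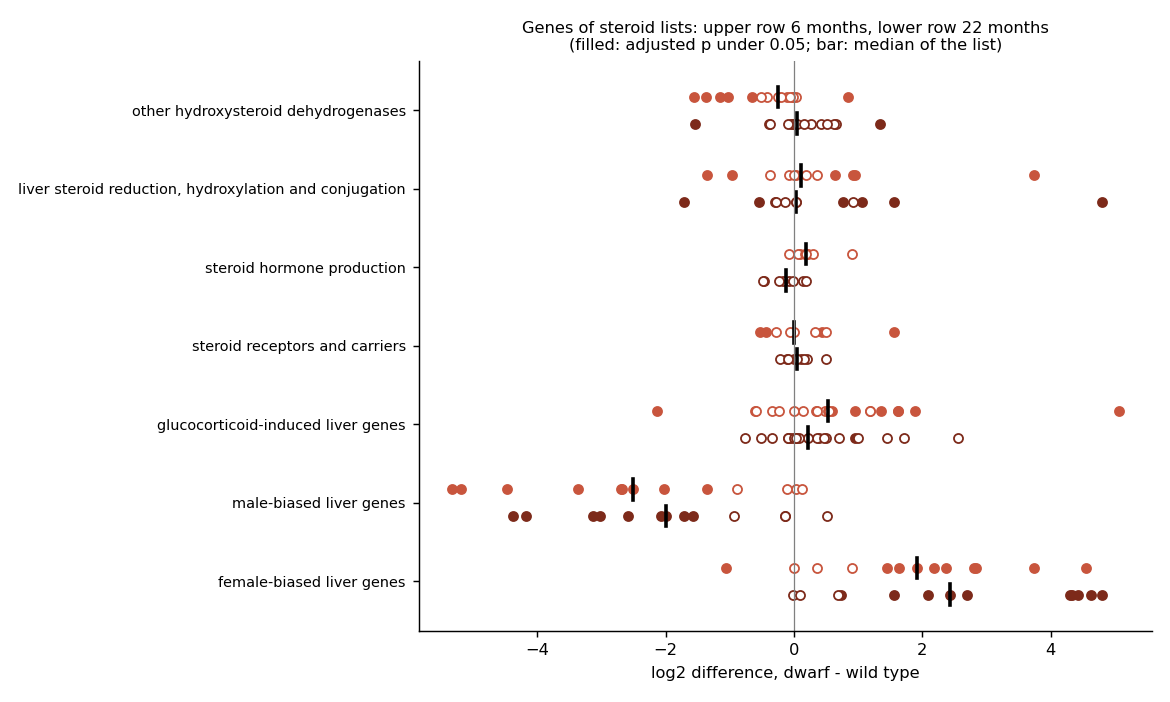
Log2 difference of dwarf against wild type for each tested gene of the steroid lists, with 6 months in the upper and 22 months in the lower row of each list. Filled points passed at a limma adjusted p under 0.05 and bars are list medians, such as -0.24 and 0.05 for the other hydroxysteroid dehydrogenases.

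The sex-biased gene lists were chosen with earlier results of these data known, so their counts are a description and not an independent test. The male-biased liver genes, apart from Hsd3b5 itself, had 9 of 13 tested members lower and 0 higher in dwarf mice at each age, with medians of -2.51 and -1.99. The female-biased genes had 9 of 13 higher and 1 lower (Hamp, the iron hormone hepcidin) at 6 months and 10 higher and 0 lower at 22 months, with medians of 1.93 and 2.43. The Hamp call was lost without animal 88 (limma adjusted p = 0.0618). The 10 female-biased genes higher at 22 months became 9 with quantile scaling or without animal 88, and 8 with median scaling. The 9 male-biased genes lower at 6 months became 10 with either scaling or without animal 88. Of 19 genes of growth hormone signalling and response, 1 was higher (Stat3) and 3 were lower (Igfals, Igf1 and Ghr) at 6 months, and 3 were lower (Igf1, Igfals and Socs2) at 22 months. The Stat3 call was lost with median scaling (adjusted p = 0.180) and without animal 88 (adjusted p = 0.0748). Igfals and Socs2 stand in both the male-biased and the growth hormone list. Cyp7b1 and Cyp2d9 stand in both the male-biased and the steroid reduction, hydroxylation and conjugation list. Sult2a2 and Cyp3a16 stand in both the female-biased and that steroid list. The calls of shared genes are therefore counted in each list. The background for these counts is the share of all probe sets given above. Some sex-biased genes lay near or below the floor in 1 genotype. Egfr reached at most 61.8 in dwarf mice, so it passed the filter through wild type arrays alone. Serpina12 had a mean of 35.6 in young dwarf mice, and Sult2a2 had 59.25 and 89.3 in young and old wild type mice. The counts and medians include such genes, and their sizes depend on how low values are treated.

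Over the 14 arrays, the genes whose log2 signal ran most like Hsd3b5 were Egfr, the epidermal growth factor receptor (Pearson r = 0.985), Zap70, a T cell kinase, through a probe set that may detect other transcripts (0.983), Mup5, a major urinary protein (0.978), and Igf1, insulin-like growth factor 1 (0.970). The comparison covered 5469 genes, and the points share the group difference, so r is a description. The probe set of Mup5 carries the _f_at suffix of possible cross-detection, as do those of Ugt2b5, Cyp7b1 and Fkbp4. Igf1 had signals of 4435 ± 523 and 1283 ± 222 in young wild type and dwarf mice and 4144 ± 144 and 1005 ± 289 in old ones. For Hsd3b2 they were Lifr (0.905), the leukaemia inhibitory factor receptor, Dio1 (0.892), the thyroid hormone deiodinase, Abcd3 (0.880), a peroxisomal transporter, and Usp15 (0.877), a deubiquitinase. Lifr stood at 2863 ± 747 and 854 ± 210.2 in young wild type and dwarf mice. For Hsd3b3 they were Cxcl12 (0.855), a chemokine, Eif4g3 (0.837), a translation initiation factor, Ahcyl1 (0.814) and Helb (0.810), a DNA helicase. For Hsd11b1 they were Nr1i3 (0.953), the constitutive androstane receptor, Cyp2c29 (0.887), a cytochrome P450, Pipox (0.872), a peroxisomal oxidase, and Cyp4a14 (0.869), a fatty acid hydroxylase. Nr1i3 rose from 2690.5 ± 1164 to 5556 ± 803 in young dwarf mice and from 1915 ± 421 to 5981 ± 910.4 in old ones.

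Among the members, r was 0.806 between Hsd3b2 and Hsd3b5, 0.636 between Hsd3b2 and Hsd3b3 and 0.433 between Hsd3b3 and Hsd3b5. Hsd11b1 ran opposite to Hsd3b5 (-0.887), Hsd3b2 (-0.584) and Hsd3b3 (-0.290). All of these are over the same 14 arrays and carry the genotype difference of both genes.

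**Figure D5:**
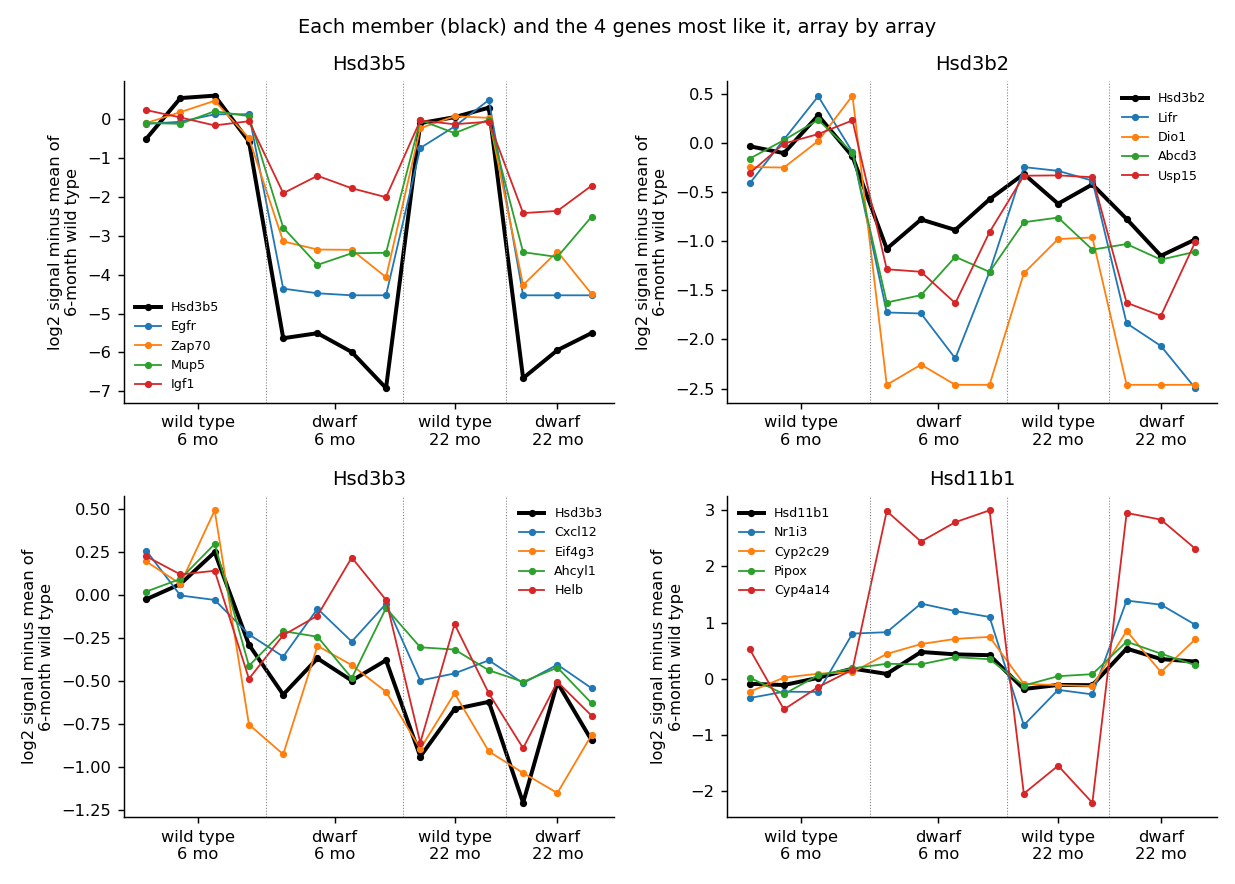
Log2 signal minus the mean of the young wild type arrays, array by array in the 4 groups, for each tested member (black) and the 4 genes most like it. The lines of Hsd3b5, Egfr, Zap70, Mup5 and Igf1 drop together in both dwarf groups, and Hsd11b1 and Nr1i3 stand higher there.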

How the data were processed

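The authors deposited linear signal intensities. The tool was MAS5, per the submitters' processing notes, and the values were used unchanged. Their trimmed mean (2% at each end) was 500.4 on every array, and no 2 arrays were identical. Groups came from the titles. Values under 54.9 were set to it, log2 was taken, and 66 controls and low probe sets were left out. All 14 arrays entered 1 limma fit (version 3.58.1, R 4.3.3) of group means, with eBayes and an intensity trend. There were 5 contrasts and 1 added average over ages. The Benjamini-Hochberg adjustment ran over 7227 probe sets in each contrast, and 0.05 was the threshold. The pipeline was tested on simulated data. The 14 arrays limit the precision.

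The members and gene lists were chosen with earlier results of these data known. Every member was named, then the 4 most similar genes per member and up to 4 genes with the smallest p per list and age (all where 5 or fewer passed). A gene with several probe sets was represented by that with the highest mean. Of 12488 probe sets, 10855 had 1 symbol, 396 several and 1237 none listed. Promoter windows (RefSeq, GRCm38.p6) were aligned locally with Biopython 1.88 (match 1, mismatch -1, gap opening -3, extension -1). Alternatives were quantile and median scaling, a floor at the 10th percentile, a pseudocount of 50, no filter, no trend, the 18S signal as a covariate, a fit of the compared groups alone, and each array left out in turn.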

Additional observations from a re-analysis of the deposited data

Results flagged for a closer look

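Hsd11b1 in dwarf mice of 6 months had 1 value apart from the others: animal 83 had a signal of 13435, against 16918, 17097 and 17608 in the other 3 mice. The 6 probe sets, those of Hsd3b1 included, were looked at in this way in young wild type and in young dwarf mice. Of these 12 sets of 4 values, 1 stood out. Chance gives about 1 in 20 for each set, so 1 among 12 is no clear excess. The sets share the same arrays and are not independent. The gap of animal 83 to the next mouse was 0.835 of the range of its group, against a limit of 0.829. Without this mouse the 6-month difference of Hsd11b1 was 0.44 on the log2 scale (limma adjusted p = 0.0150).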

How the results depend on the processing

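Over all settings and arrays left out, the Hsd3b5 calls at both ages and the 6-month Hsd3b2 call held, with log2 differences of -6.20 to -5.51 and -6.37 to -5.51 for Hsd3b5 and -1.03 to -0.74 for Hsd3b2. The 6-month Hsd3b3 difference passed with quantile scaling (-0.57) and median scaling (-0.65). The 22-month Hsd11b1 call was lost with median scaling (0.53), no filter (0.53), no intensity trend (0.53), the compared groups alone (0.53) and 18S as a covariate (0.54), which left 1 member called. Leaving out each array gave 0.46 to 0.58 and 1 to 2 members called. For Hsd11b1 at 6 months it gave 0.31 to 0.44, and with age in wild type 0 to 1 members passed. Calls over all probe sets with age in wild type fell from 180 to 106 with median scaling, 102 with no filter, 90 with no trend, 9 with 18S and 76 with the compared groups alone, and ran from 60 to 456 (without animal 88). With age in dwarf mice they fell from 1193 to 110 with 18S and ran from 520 to 1453 over arrays left out. The interaction had 158, 69 with no filter, 64 with no trend and 46 to 169 over arrays left out. At 6 months 962 became 630 with the compared groups alone, and at 22 months 212 ran from 126 to 241. With median scaling 18.2% of 6-month calls were higher in dwarf mice, against 47.8% as deposited; in the interaction it was 89.7% against 70.3%, with age in dwarf mice 79.3% against 48.1%, and in the average over ages 25.5% against 45.3%. The cause of these changes was not tested. No paired analysis was possible because the animal numbers are not shared between groups. Low signals near the floor limit Hsd3b1 and the dwarf values of Hsd3b5.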
